A study of Mus musculus with 2 samples.

Results

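The 5 subunits of the transcription factor NF-κB (Nfkb1, Nfkb2, Rel, Rela and Relb) and 5 of its inhibitors of the IκB family (Nfkbia, Nfkbib, Nfkbie, Nfkbid and Nfkbiz) were followed through the cells of the mouse mediastinal lymph node. These 10 genes were taken by symbol from the 31053 genes counted in both libraries, and all 10 were detected. Each was described by lineage, as its share of the lineage's transcripts and as the share of cells in which it was found.

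NF-κB acts as dimers of its subunits, which IκB proteins hold in the cytoplasm until a kinase complex (IKK) marks the inhibitor for degradation. Signals through antigen receptors, Toll-like receptors and receptors of the TNF family feed into this step, and the freed dimers switch on genes of inflammation, survival and lymphocyte activation. Several of the inhibitor genes are themselves NF-κB targets, so their transcripts are often read as a trace of the pathway's activity, whereas the libraries here hold mRNA and say nothing of protein, phosphorylation or location in the cell.

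The cells came from the lymph nodes that drain the lung, taken from mice with ovalbumin (OVA) induced asthma. All mice were WT and of the C57/B6J strain, 5 to 13 weeks old. All received 50 µg OVA with alum into the peritoneum on days 0 and 7 and 50 µg OVA into the nose on each of days 14 to 16, and the nodes were collected on day 17. One group was without butyrate (OVA) and the other also received butyrate, a short-chain fatty acid made by gut bacteria (C4, here with butyrate), and in the study's butyrate protocols control mice received saline. The cells of 4 mice were pooled into 1 droplet library per group. The mice cannot be told apart within a pool, no condition has a replicate, and none of the differences below could be tested against the spread between animals. Every interval is a 95% interval of counting error only.

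The library without butyrate held 9681 cells and 59176459 unique molecular identifiers (UMIs, each counted as 1 transcript). The library with butyrate held 8932 cells and 58381292 UMIs. After filters 8774 and 8013 cells were kept, with medians of 5075 and 5649 UMIs per cell, and 25 cell barcodes occurred in both libraries. Cells were assigned to lineages by UMIs of Cd79a, Cd3e, Cd4, Cd8a, Foxp3 and Lyz2. This gave 4209 and 3937 B cells (without and with butyrate), 877 and 774 CD4+ T cells, 1453 and 1462 CD8+ T cells, 159 and 142 Foxp3+ T cells, 1008 and 787 other T cells, and 29 and 23 Lyz2+ cells. The labels held against genes that had not been used to set them, except that other T cells were mixed. The summed level of 6 further B cell markers was 4072 and 4576 CPM (UMIs of a gene scaled to a common total of UMIs per lineage) in B cells and 38.8 to 53.6 CPM in the T lineages, and 4 regulatory T cell markers summed to 1695 and 1548 CPM in Foxp3+ T cells against 229 and 179 CPM in CD4+ T cells. Cd8b1, the other chain of CD8, was at 930 and 960 CPM in CD8+ T cells and at 15.4 and 19.4 CPM in CD4+ T cells. In other T cells it was at 184 and 161 CPM and found in 22.6% and 19.7% of cells. In Lyz2+ cells 7 myeloid markers summed to 10462 and 9476 CPM. The B cell markers in T lineages amounted to 1.95 to 2.90% of their level over all cells. T cells had to hold no UMI of Cd79a, and likely doublets had been dropped. The value thus measures only the B cell RNA left after these steps, not all free RNA or mixed droplets. Cxcr5+Pdcd1+ T cells, Fscn1+ cells, Ncr1+ cells and plasma cells each had fewer than 20 cells in at least 1 library and are given no values.

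On GRCm38 with GENCODE M21, the subunit genes were Nfkb1 (ENSMUSG00000028163) at chr3:135584655-135691547 on the − strand, Nfkb2 (ENSMUSG00000025225) at chr19:46304320-46312385 on the + strand, Rel (ENSMUSG00000020275) at chr11:23736847-23770970 on the − strand, Rela (ENSMUSG00000024927) at chr19:5637483-5648130 on the + strand and Relb (ENSMUSG00000002983) at chr7:19606217-19629438 on the − strand. The inhibitor genes were Nfkbia (ENSMUSG00000021025) at chr12:55489410-55492647 on the − strand, Nfkbib (ENSMUSG00000030595) at chr7:28758251-28767512 on the − strand, Nfkbie (ENSMUSG00000023947) at chr17:45555703-45563169 on the + strand, Nfkbid (ENSMUSG00000036931) at chr7:30421732-30428746 on the + strand and Nfkbiz (ENSMUSG00000035356) at chr16:55811375-55838899 on the − strand. Promoters were searched because the inhibitor and subunit genes that NF-κB itself controls carry κB sites close to their starts. For each member with a match to the motif below, 1 promoter that held it is shown. RefSeq (GRCm38.p6) start sites were available for 7 of the 10 members, with 11 starts in all, and Nfkb1, Relb and Nfkbiz had no entry. The 250 bases before each start were searched on both strands for a κB motif, the letters GGG followed by any 3 bases and then TTCC. It was present in 4.65% of all 32851 promoters and in 7 of the 11 member promoters. Counted by gene, 5 of the 7 members held it, against 5.31% of all genes. Capitals mark the match, and each sequence runs 5′ to 3′ on the strand of the gene and ends at the base before the start.
Nfkbia (chr12:55492648-55492897, − strand): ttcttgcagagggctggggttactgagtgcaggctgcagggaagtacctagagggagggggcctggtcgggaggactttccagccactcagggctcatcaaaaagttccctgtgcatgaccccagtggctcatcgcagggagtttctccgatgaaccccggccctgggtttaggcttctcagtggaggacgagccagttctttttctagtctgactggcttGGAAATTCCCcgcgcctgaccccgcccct
Nfkb2, first start (chr19:46304487-46304736, + strand): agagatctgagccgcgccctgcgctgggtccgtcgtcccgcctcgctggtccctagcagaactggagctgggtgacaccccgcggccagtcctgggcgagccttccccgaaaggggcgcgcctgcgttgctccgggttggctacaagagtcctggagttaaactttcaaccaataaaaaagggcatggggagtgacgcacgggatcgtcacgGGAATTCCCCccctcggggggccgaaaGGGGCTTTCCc
Rel (chr11:23770970-23771219, − strand): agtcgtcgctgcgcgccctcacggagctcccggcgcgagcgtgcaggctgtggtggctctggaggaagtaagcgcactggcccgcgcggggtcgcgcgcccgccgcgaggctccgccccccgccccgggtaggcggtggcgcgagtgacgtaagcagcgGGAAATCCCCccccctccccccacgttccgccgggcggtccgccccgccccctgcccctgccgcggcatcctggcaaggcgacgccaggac
Nfkbid, second start (chr7:30422156-30422405, + strand): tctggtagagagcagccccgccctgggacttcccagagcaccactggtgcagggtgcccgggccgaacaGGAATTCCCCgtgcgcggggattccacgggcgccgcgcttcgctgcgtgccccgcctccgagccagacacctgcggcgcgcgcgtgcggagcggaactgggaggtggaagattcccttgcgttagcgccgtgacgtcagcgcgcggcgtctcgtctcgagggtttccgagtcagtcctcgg
Nfkbie (chr17:45555450-45555699, + strand): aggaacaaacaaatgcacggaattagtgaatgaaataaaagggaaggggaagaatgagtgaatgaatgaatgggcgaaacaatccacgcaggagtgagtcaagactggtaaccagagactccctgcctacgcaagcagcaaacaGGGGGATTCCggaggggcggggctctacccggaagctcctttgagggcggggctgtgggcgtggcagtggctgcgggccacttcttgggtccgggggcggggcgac
The Nfkbia promoter held its match 29 to 20 bases before the start. Nfkb2 held 2 matches in the first promoter, 38 to 29 and 11 to 2 bases before the start, a number reached by 0.146% of all promoters. The other 2 starts of Nfkb2 each held 1 more. Rel held its match 91 to 82, Nfkbid 181 to 172 and Nfkbie 106 to 97 bases before the start. Rela, Nfkbib and the remaining starts of Nfkbid had no match in this window. A match describes the letters only, and no binding was measured.

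Rel, which encodes the subunit c-Rel, was the member that set B cells apart most. Its level was 248 CPM (5673 UMIs) without and 234 CPM (5095 UMIs) with butyrate in B cells. In CD8+ T cells it was 45.4 and 39.7 CPM, and in CD4+ T cells 54.2 and 44.6 CPM. Rel was thus 5.66-fold higher in B cells than in CD8+ T cells and 2.31-fold higher than in Lyz2+ cells, the next in order at 92.4 and 116 CPM, and the B cell values overlapped with no other lineage. In cells thinned to 2000 UMIs each, Rel was found in 36.4% and 35.1% of B cells and in 9.85% and 8.30% of CD4+ T cells.

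Nfkb2 and Relb, which encode the p100/p52 and RelB pair of the alternative pathway, were also higher in B cells than in most T cells. Nfkb2 was at 51.0 and 55.7 CPM in B cells and at 14.1 and 11.7 CPM in CD8+ T cells, a 4.13-fold difference of the means. In Lyz2+ cells Nfkb2 was at 61.6 and 40.1 CPM on only 14 and 9 UMIs, which was not told apart from B cells. Relb was at 52.6 and 55.3 CPM in B cells against 30.3 and 21.1 CPM in CD4+ T cells. Nfkb1, which encodes p105/p50, spread less. It was at 176 and 120 CPM in Lyz2+ cells, 136 and 119 CPM in Foxp3+ T cells and 106 and 118 CPM in B cells. CD8+ T cells were lowest for Nfkb1, at 67.9 and 74.9 CPM. Its excess in Lyz2+ over B cells was 0.68 on the log2 scale (0.23 to 1.11) without butyrate. With butyrate it was 0.029 (−0.52 to 0.54). Rela, which encodes p65, was the most even of the subunits. It was at 42.2 and 49.7 CPM in B cells, 40.0 and 38.0 CPM in CD4+ T cells and 33.9 and 35.0 CPM in CD8+ T cells. Over both libraries neighbours in its order of lineages overlapped, as they also did for Nfkb1, Nfkb2 and Relb. Within the libraries Rela was higher in B than in CD8+ T cells, by 0.25 (0.11 to 0.39) without and 0.41 (0.28 to 0.54) with butyrate on the log2 scale. Lyz2+ cells exceeded B cells without butyrate, by 0.77 (0.12 to 1.38), and not with butyrate (−0.13, −0.93 to 0.63).

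Among the inhibitors, Nfkbia (IκBα, the inhibitor that is made anew quickly after stimulation) had an order of lineages close to that of Nfkb1. It was highest in Lyz2+ cells, at 788 and 882 CPM, then in Foxp3+ T cells, at 592 and 569 CPM, and these 2 lineages overlapped neither with each other nor with the rest. In the Lyz2+ cells a single cell carried 26.3% and 31.8% of the Nfkbia UMIs of its library. B cells (303 and 283 CPM), other T cells (294 and 253 CPM) and CD4+ T cells (313 and 233 CPM) overlapped over both libraries. Within the library with butyrate, B cells exceeded CD4+ T cells by 0.27 on the log2 scale (0.19 to 0.36), and without butyrate the interval included 0. CD8+ T cells were lowest at 222 and 161 CPM, with CD4+ T cells above them by 0.48 (0.39 to 0.57) and 0.51 (0.41 to 0.61) within the libraries. Foxp3+ T cells exceeded CD4+ T cells by 0.90 on the log2 scale (0.77 to 1.02) without butyrate and by 1.25 (1.12 to 1.39) with butyrate.

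Nfkbiz (IκBζ, a nuclear IκB protein that assists transcription of a second wave of targets) was likewise highest in Lyz2+ cells, at 163 and 169 CPM, and unlike Rel it was not led by B cells among the lymphocytes. It was at 32.4 and 36.6 CPM in B cells, 53.8 and 39.9 CPM in CD4+ T cells and 66.6 and 70.4 CPM in Foxp3+ T cells. Nfkbid (IκBNS, another nuclear IκB protein) and Nfkbie (IκBε) were instead highest in B cells among the lymphocytes. Nfkbid was at 57.5 and 69.2 CPM in B cells and at 17.5 and 15.6 CPM in CD8+ T cells, a 3.83-fold difference of the means. Nfkbie was at 44.4 and 40.8 CPM in B cells against 11.5 and 12.3 CPM in CD8+ T cells, and its B cell interval overlapped with no T lineage in either library. Lyz2+ cells had 18 and 11 UMIs of Nfkbie, at 79.2 and 49.0 CPM. Without butyrate they exceeded B cells by 0.71 on the log2 scale (0.060 to 1.32). With butyrate the interval included 0 (0.22, −0.56 to 0.95). Nfkbib (IκBβ) was the most even inhibitor, at 40.8 and 39.9 CPM in B cells and 28.3 and 29.8 CPM in CD8+ T cells. Across the 10 genes the CD8+ T lineage was lowest for 8, B cells were highest for 3 and Lyz2+ cells for 7. How often these lineages are lowest or highest over all genes was not counted. For every member the lowest lineage overlapped the next one over both libraries. Lyz2+ cells stood clear of the next lineage over both libraries only for Nfkbia and Nfkbiz, and the other 5 rested on 9 to 40 UMIs per library. With butyrate 3 of the 23 Lyz2+ cells were also Fscn1+. With at least 2 UMIs of each lineage's markers required, the highest lineage stayed for all 10 and the lowest for 8.

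**Figure D1:**
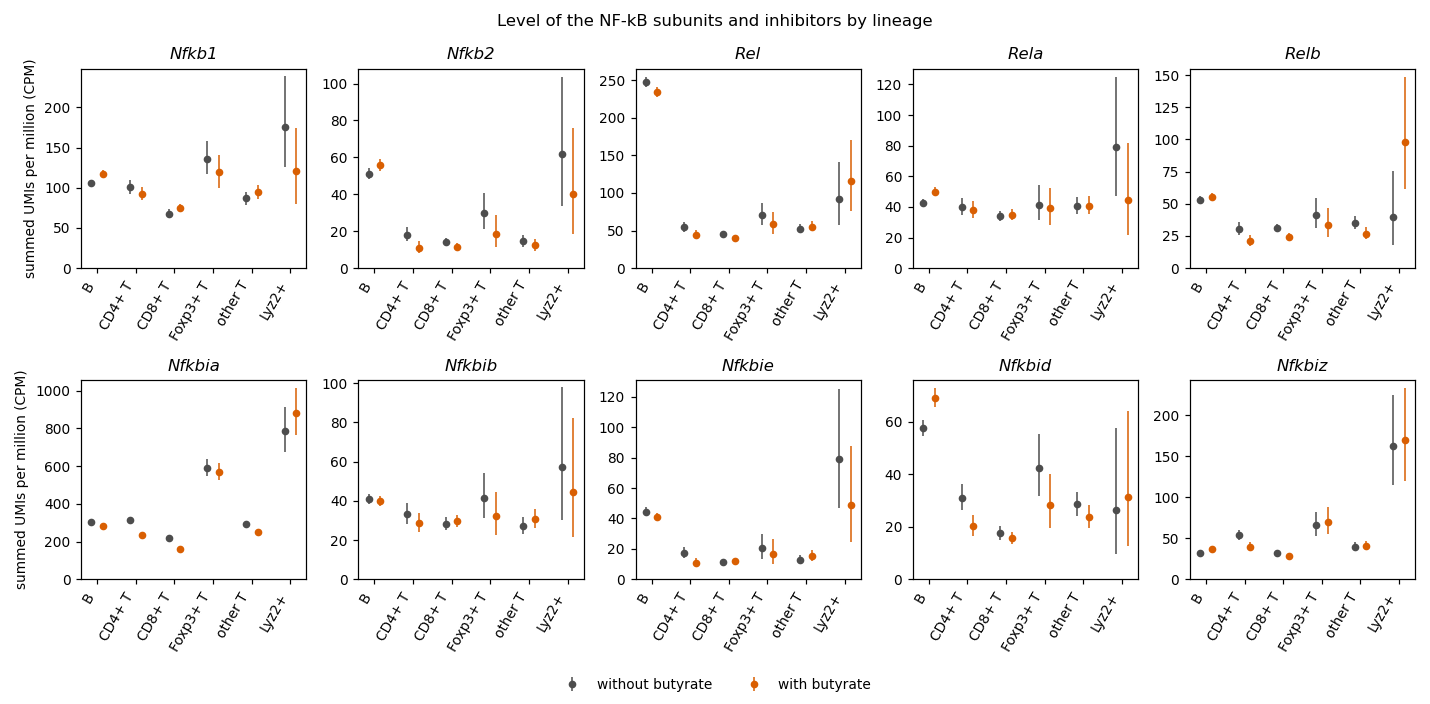
Level of each NF-κB subunit and inhibitor in 6 lineages, in CPM on a linear axis, with 1 point per library and bars for the exact 95% Poisson interval. Rel stands at 248 and 234 CPM in B cells above every other lineage, and Nfkbia is highest in Lyz2+ and Foxp3+ T cells.

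For each member and lineage the library with butyrate was then compared with the library without, as the log2 ratio of CPM after adding 10 CPM to each, which draws the ratios of low genes towards 0. In CD4+ T cells all 10 members were lower with butyrate, as were 49.5% of all genes, and 7 of the 10 had an interval below 0, against 7.81% of all genes. Their median log2 ratio was −0.36 where that of all 8370 genes tested was 0.0025. A log2 ratio past −0.25 was reached by 6 of the 10 members, against 5.75% of all genes tested in CD4+ T cells, and 0 members passed 0.25 in the higher direction, against 4.66%. Together the 10 genes made up 691 CPM without and 540 CPM with butyrate.

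Nfkbia contributed more to this sum than any other member. Its level in CD4+ T cells was 313 CPM (1589 UMIs) without and 233 CPM (1189 UMIs) with butyrate, a log2 ratio of −0.41 (−0.52 to −0.31). One CD4+ T cell with butyrate held 104 of these UMIs, and without the top cell of each library the ratio was −0.51. The nuclear inhibitors went the same way. Nfkbid was at 30.9 CPM (157 UMIs) and 20.2 CPM (103 UMIs), a log2 ratio of −0.44 (−0.70 to −0.18). Nfkbiz was at 53.8 CPM (273 UMIs) and 39.9 CPM (204 UMIs), with a log2 ratio of −0.35 (−0.57 to −0.13). Nfkbie was lower as well, at 17.3 CPM (88 UMIs) and 10.8 CPM (55 UMIs), a log2 ratio of −0.40 (−0.68 to −0.11). Nfkbib was at 33.3 and 28.8 CPM, with a log2 ratio of −0.16 and an interval that included 0.

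Of the subunits, Nfkb2, Relb and Rel had intervals below 0 in CD4+ T cells, and the intervals of Nfkb1 and Rela included 0. The interval of Nfkb1 overlapped those of Nfkb2, Relb and Rel, and differences between the ratios of the subunits were not computed. Nfkb2 was at 17.9 CPM (91 UMIs) and 11.2 CPM (57 UMIs), a log2 ratio of −0.40 (−0.68 to −0.11). Relb was at 30.3 CPM (154 UMIs) and 21.1 CPM (108 UMIs), a log2 ratio of −0.37 (−0.63 to −0.11). Rel was at 54.2 and 44.6 CPM, and its log2 ratio of −0.23 (−0.45 to −0.017) fell just short of the limit of 0.25. Nfkb1, at 100.5 and 92.8 CPM, had a log2 ratio of −0.10 (−0.27 to 0.062). Rela, at 40.0 and 38.0 CPM, had one of −0.059 (−0.29 to 0.17), so a decrease larger than 0.29 on this scale lay outside its counting interval.

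The depth of CD4+ T cells differed between the libraries, with medians of 5244 and 6043 UMIs per cell. With every cell thinned to 2000 UMIs the summed log2 ratio of the 10 genes was −0.45, against −0.36 from all UMIs. Relb (−0.23) and Nfkbiz (−0.13) then no longer passed −0.25, and Rel (−0.32) and Nfkbib (−0.47) did. The 7 myeloid markers summed to 171 CPM without and 85.0 CPM with butyrate in the CD4+ T lineage (Csf1r was at 0 with butyrate and at 0.197 CPM without). Cst3 made up 116 and 73.6 CPM of these sums and Lgals3 42.2 and 6.66 CPM. Only Itgam was higher with butyrate, at 0.788 and 1.96 CPM. In 845 and 746 CD4+ T cells no UMI of the 6 markers other than Cst3 was found. Cst3 was not used to choose these cells, and its level in them was not computed. In these cells the summed ratio of the 10 genes was −0.32 and that of Nfkbia −0.41. When at least 2 UMIs of Cd3e and Cd4 were required, Nfkb2 reached −0.74, whereas Nfkbia (−0.22), Nfkbid (−0.24) and Relb (−0.17) no longer passed 0.25. The 4 regulatory T cell markers summed to 229 CPM without and 179 CPM with butyrate in the CD4+ T lineage. The ratios were not split by subset of CD4+ T cells, and the part of the subset mix in them was not tested.

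The CD8+ T cell difference rested on Nfkbia and Relb. Nfkbia was at 222 CPM (2355 UMIs) without and 161 CPM (1979 UMIs) with butyrate, a log2 ratio of −0.44 (−0.52 to −0.36). Relb was at 31.0 and 24.2 CPM, with a log2 ratio of −0.26 (−0.43 to −0.092). These 2 of 10 members passed −0.25, against 2.15% of all 9287 genes tested, and 0 passed 0.25 in the higher direction, against 1.53%. Relb did not pass without the top cell of each library (−0.22). The other 8 had log2 ratios between −0.16 and 0.12. Rel was at 45.4 and 39.7 CPM, with a ratio of −0.16 (−0.31 to −0.0068), and Nfkb1 was at 67.9 and 74.9 CPM, with a ratio of 0.12 (−0.0013 to 0.25). The median of the members was −0.11 in CD8+ T cells, the median of all genes was 0.010, and median depth was 6745 and 7808 UMIs per cell. Thinned to 2000 UMIs, Nfkbid (−0.33) and Nfkbiz (−0.42) passed −0.25 as well.

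B cells showed no such shift. None of the 10 members passed 0.25 in either direction, against 1.25% of all 10470 genes in the higher and 2.45% in the lower direction, and their summed level was 978 and 982 CPM. Because B cells gave the most UMIs, smaller differences were resolved, and these had both signs. Nfkbid was at 57.5 CPM (1316 UMIs) without and 69.2 CPM (1508 UMIs) with butyrate, a log2 ratio of 0.23 (0.14 to 0.32). Rela was at 42.2 and 49.7 CPM, with a ratio of 0.19 (0.089 to 0.30). Nfkb1 (0.14), Nfkbiz (0.14) and Nfkb2 (0.11) were also higher. These 5 had intervals above 0, as did 17.6% of all genes, and 2 members had intervals below 0, as did 9.68%. Nfkbia, at 303 and 283 CPM, was lower by a log2 ratio of −0.096 (−0.14 to −0.048), and Rel, at 248 and 234 CPM, by −0.080 (−0.13 to −0.028). Relb, Nfkbib and Nfkbie had intervals that included 0. The plasma cell markers in the B lineage summed to 1594 CPM without and 690 CPM with butyrate, and without plasma cells the summed log2 ratio of the 10 genes was −0.028 in place of 0.0058.

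The remaining lineages gave wider intervals. In Foxp3+ T cells Nfkbia was at 592 CPM (755 UMIs) and 569 CPM (639 UMIs), a log2 ratio of −0.055 (−0.21 to 0.096). Nfkb2 (−0.47), Nfkbid (−0.44) and Nfkbib (−0.29) passed −0.25, which 16.1% of all 5121 genes tested did in this lineage (15.7% were higher past 0.25), and the intervals of all 9 members tested included 0, where 13.3% of all genes had one clear of 0. The Foxp3+ T values differed between all UMIs and thinned cells, and the cause was not tested. Thinned to 2000 UMIs, Nfkbia was at −0.67 and Nfkbid at 0.025. The thinned Nfkbid value rests on few UMIs, as 150 of 158 cells without and 131 of 139 with butyrate held none. The 4 regulatory markers were at 1695 and 1548 CPM, and the 7 myeloid markers summed to 365 and 198 CPM, with Csf1r at 0 in both libraries and Lgals3 at 196 and 70.4 CPM. In cells without a UMI of the 6 markers other than Cst3 the summed ratio was −0.14 in place of −0.13. Nfkb1 was at 0.16 there in place of −0.18. In other T cells Relb was at 35.3 and 26.8 CPM, a log2 ratio of −0.30 (−0.55 to −0.054), the one member past −0.25, which 4.94% of all genes passed (5.71% were higher past 0.25). Nfkbia was at 294 and 253 CPM there, with a ratio of −0.21 (−0.32 to −0.11). In Lyz2+ cells, with 29 and 23 cells, 3 members reached 50 UMIs. Nfkb1 was at 176 and 120.3 CPM (40 and 27 UMIs) and had a ratio of −0.51 (−1.22 to 0.18), where 36.0% of the 1318 genes tested passed −0.25 and 19.0% passed 0.25. Nfkbia (0.16) and Nfkbiz (0.054) had intervals that included 0 there as well.

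**Figure D2:**
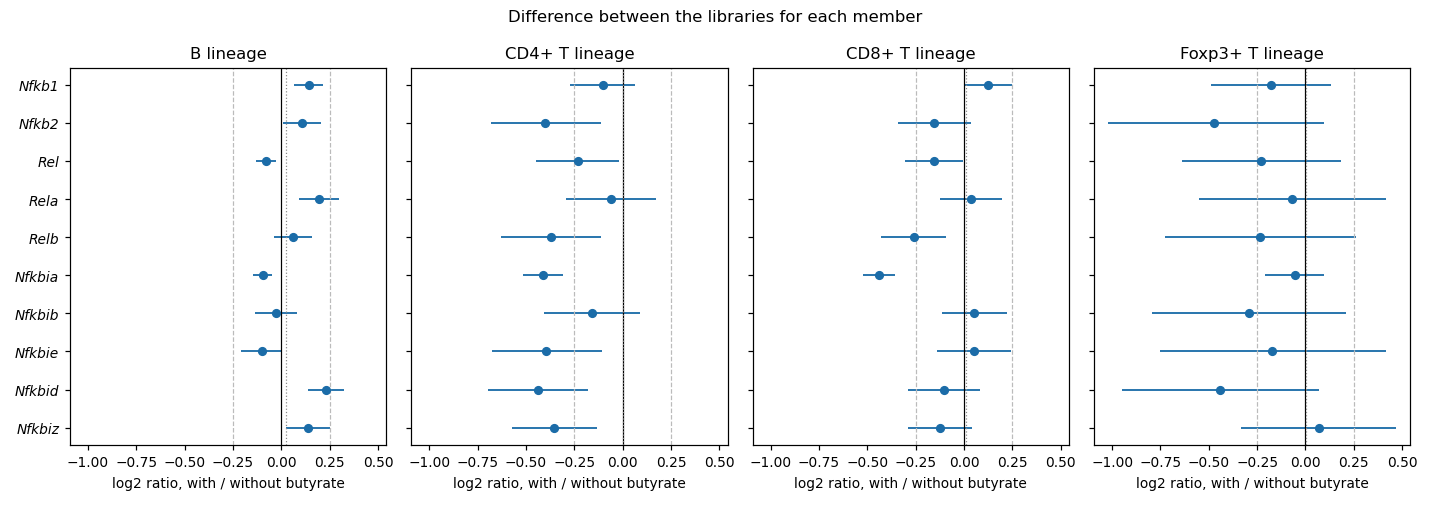
Log2 ratio of CPM with butyrate over without (pseudocount of 10 CPM) for each member in B, CD4+ T, CD8+ T and Foxp3+ T cells, with 95% counting intervals, dashed lines at ±0.25 and a dotted line at the median of all genes tested. All 10 points lie below 0 in CD4+ T cells, while the B cell points lie between −0.10 and 0.23.

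The ratios of CD4+ T cells and B cells were then compared with each other, as the difference of log2 ratios without a pseudocount. The CD4+ T ratio was below the B ratio with an interval clear of 0 for 7 members, against 9.18% of the 8181 genes compared, and for the other 3 the interval included 0. The difference was −0.89 (−1.26 to −0.51) for Nfkbid, −0.81 (−1.30 to −0.32) for Nfkb2 and −0.61 (−0.91 to −0.31) for Nfkbiz. These are genes with higher values with butyrate in B cells and lower values in CD4+ T cells. For Nfkbia, which was lower in both, the difference was −0.33 (−0.45 to −0.21). CD8+ T cells differed from B cells in the same way for 5 members, against 9.28% of 8987 genes, Nfkbia at −0.37 (−0.46 to −0.27) among them. Between CD4+ and CD8+ T cells the Nfkbia ratios differed by 0.037 (−0.10 to 0.18). Nfkb1 (−0.26, −0.48 to −0.027) and Nfkbie (−0.78, −1.38 to −0.19) were the members whose ratio was lower in CD4+ than in CD8+ T cells beyond counting error, against 4.98% of 8274 genes. Nfkbia in CD4+ T cells also differed from Foxp3+ T cells, by −0.37 (−0.56 to −0.18), but thinned to 2000 UMIs the ratios were −0.57 and −0.67, in the opposite order. All of these differences rest on the same 2 libraries.

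The share of cells in which Nfkbia was found gave the same direction as its level. In cells thinned to 2000 UMIs, Nfkbia was found in 36.5% (33.3 to 39.8) of CD4+ T cells without and 26.7% (23.6 to 30.0) with butyrate. Among CD8+ T cells the shares were 31.5% (29.1 to 33.9) and 22.0% (19.9 to 24.2). The intervals of both libraries were separate in these lineages. In B cells the shares were 44.0% and 40.8%, a smaller difference, also with separate intervals. In Foxp3+ T cells they were 62.7% (54.6 to 70.2) and 47.5% (39.0 to 56.1), where the intervals touched. Before thinning the CD4+ T shares were 62.0% and 57.2% and the CD8+ T shares 60.6% and 54.2%, at the higher depth of the library with butyrate. In CD4+ and CD8+ T cells most of the difference in these shares lay between cells with no UMI and cells with 1 or 2. In CD4+ T cells, 23.1% and 19.2% of thinned cells held 1 UMI of Nfkbia, 7.45% and 4.80% held 2, and 3.78% and 1.17% held 3. In Foxp3+ T cells 24.1% and 25.9% held 1, 15.8% and 10.8% held 2, and 10.1% and 2.88% held 3.

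**Figure D3:**
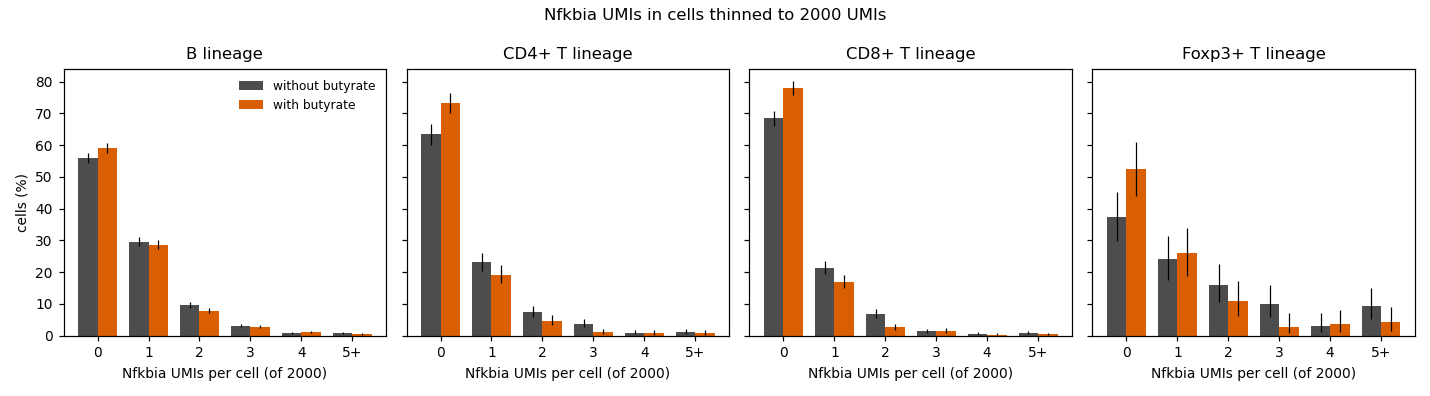
Percent of cells by the number of Nfkbia UMIs found after thinning each cell to 2000 UMIs, for 4 lineages and both libraries, with exact 95% Clopper-Pearson bars. The share with 0 UMIs is 63.5% without and 73.3% with butyrate in CD4+ T cells, and 68.5% and 78.0% in CD8+ T cells.

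Counted together in thinned cells, a CD4+ T cell showed on average 1.04 of the 10 members without and 0.825 with butyrate, and a CD8+ T cell 0.852 and 0.708. In B cells the averages were 1.60 and 1.61. At least 3 members were found in 8.59% and 5.32% of CD4+ T cells and in 20.9% and 20.5% of B cells. Among the single members, Nfkbid was found in 5.27% and 2.98% of CD4+ T cells and in 9.97% and 12.1% of B cells, opposite directions in the 2 lineages.

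The other genes of the pathway were read in 6 lists, beside a list of interferon-response genes. In CD4+ T cells the signalling step above the inhibitors was close to even. Of 20 genes for IKK, the kinases above it and their adaptors, 18 were compared, 0 passed in the lower and 1 in the higher direction, and their median was −0.011. Ikbkb, the catalytic IKK subunit of the classical pathway, had a log2 ratio of −0.067. Prkcq, the kinase through which the T cell receptor reaches NF-κB, was at 154 and 154 CPM (−0.0068). Of the receptors, 1 of 7 tested was lower past 0.25, Tnfrsf18 (GITR), at 78.4 and 63.8 CPM (−0.26). Of the ligands 0 of 5 passed in either direction. Ltb, the lymphotoxin chain that drives the alternative pathway, was at 868 and 805 CPM (−0.11), and Cd40lg, with which helper T cells engage B cells, at 57.9 and 47.8 CPM (−0.23).

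The other negative regulators were led in CD4+ T cells by Tnfaip3, which encodes A20, an ubiquitin-editing enzyme that is itself an NF-κB target. Tnfaip3 was at 157 CPM without and 95.1 CPM with butyrate, a log2 ratio of −0.67 (−0.82 to −0.51), larger than that of any of the 10 members. Tnfaip3 in CD8+ T cells was at 114 and 82.1 CPM (−0.43) and in B cells at 28.3 and 25.6 CPM (−0.10). Its CD4+ T ratio lay below its B cell ratio, with a difference of −0.58 (−0.81 to −0.35). The deubiquitinase Cyld was at 105 and 88.1 CPM in CD4+ T cells (−0.23). In that list 9 of 11 genes had a ratio below 0 and 2 passed −0.25, with a median of −0.050. Of 12 known target genes tested 2 passed −0.25, with a median of −0.20. Irf1, an interferon-regulated transcription factor, was at 101 and 75.6 CPM (−0.37).

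Immediate early genes, which are switched on by activation and also by handling of cells, differed in the same direction as the members in CD4+ and CD8+ T cells. The list had a median of 0.12 in Foxp3+ T cells and of −0.0021 in other T cells, where the members had −0.23 and 0.012. In CD4+ T cells 17 of 20 such genes had a ratio below 0 and 9 passed −0.25, with a median of −0.21. The early activation marker Cd69 was at 395 and 285 CPM (−0.45), the phosphatase Dusp1 at 186 and 136 CPM (−0.43) and Dusp2 at 345 and 256 CPM (−0.42). For CD8+ T cells 5 of 21 passed −0.25, with a median of −0.14, Cd69 being at 426 and 351 CPM (−0.27) and Ppp1r15a at 139 and 113 CPM (−0.27). In B cells the list had the other sign, with 18 of 22 above 0, 4 past 0.25 and a median of 0.18. The transcription factor Egr1 was at 64.0 and 92.7 CPM (0.47) and the mRNA decay factor Zfp36 at 260.0 and 363 CPM (0.47) there. The part of cell handling in the ratios of the 10 members was not tested.

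In B cells 61.9% of all genes had a ratio above 0. Of the IKK and adaptor genes 17 of 20 had a ratio above 0 and 0 passed 0.25, with a median of 0.090 where all genes had 0.027. Prkcb, the kinase that links the B cell receptor to NF-κB, was at 105 and 125 CPM (0.23), and the receptors Cd40 and Tnfrsf13b (TACI) at 52.5 and 61.5 CPM (0.19) and at 123 and 139 CPM (0.17). Of 18 known targets tested 2 passed in each direction, with a median of 0.021. Cd83, a surface marker of activated B cells, was at 272 and 364 CPM, a log2 ratio of 0.41 (0.36 to 0.45). In CD8+ T cells 0 of 20 genes of the IKK list passed in either direction (median −0.011), and 2 of 15 targets were higher and 1 lower past 0.25. Myc was at 52.4 and 65.9 CPM (0.28) there. The chemokine Ccl4, chosen after its values were seen, had the largest ratio of this list in CD8+ T cells, at 12.8 and 43.8 CPM (1.24).

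Interferon-response genes were lower with butyrate in every one of the 3 main lineages, 17 of 18 past −0.25 in each, with medians of −0.85 in CD4+ T, −0.69 in CD8+ T and −0.46 in B cells. Isg15 was at 183 and 70.7 CPM in CD4+ T cells (−1.26), and Ifi27l2a at 1700 and 773 CPM (−1.13). In 496 and 579 CD4+ T cells no UMI of Ifit1, Ifit3 or Isg15 was found. In these the 10 members summed to a log2 ratio of −0.39, and Nfkbia was at −0.55. Other genes of the interferon list were not used to choose these cells. The part of the interferon response in the ratios of the members was not tested.

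**Figure D4:**
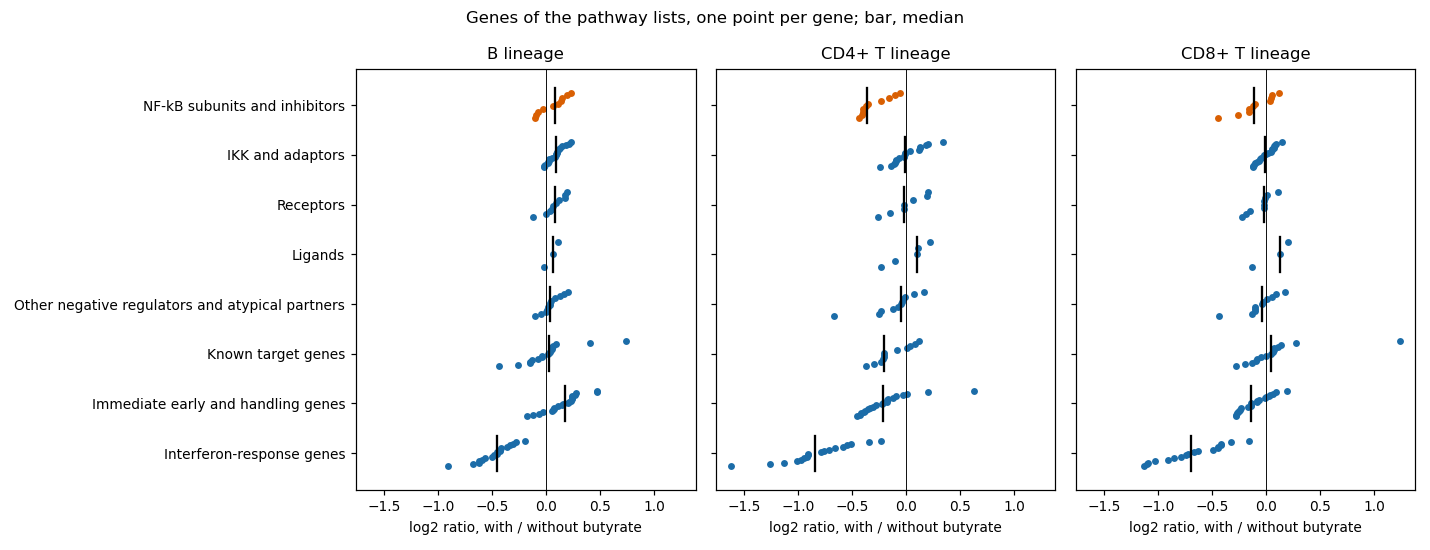
Log2 ratio of CPM with butyrate over without for each gene of the NF-κB subunits and inhibitors and of the other lists in B, CD4+ T and CD8+ T cells, 1 point per gene, with a bar at each list's median. The members' median is −0.36 in CD4+ T cells, −0.11 in CD8+ T cells and 0.083 in B cells, and the interferon list is lowest in all 3 lineages.

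The genes whose level followed each member most closely over the 6 lineages of both libraries (12 points that share libraries and differ mainly by lineage) were found by Pearson's r on log2(CPM + 10) among 4386 genes. Rel was followed by Pkig (0.987), Lmbrd1 (0.981) and Zfp608 (0.978). Nfkbie was followed by Erp29 (0.985), Ctsz (0.981) and Irf5 (0.978), and Nfkbia by S100a6 (0.982), Pdia3 (0.978) and Mt1 (0.970). For Nfkbiz the closest was Vps4b (0.992), for Nfkb1 Calm2 (0.974), for Nfkb2 Myo1c (0.973), for Rela Tnpo3 (0.973), for Relb Glyr1 (0.952) and for Nfkbib Alcam (0.967). Nfkbid had the weakest closest matches, Tnfrsf13b (0.917), Swap70 (0.911) and Csk (0.907). With so few points many genes reach such values, and they describe likeness over lineages only.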

How the data were processed

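The authors deposited counts of UMIs for each gene in each cell, with gene and barcode names, for 2 droplet libraries (10x 3′ kit, Cell Ranger 6.0.1 and mm10 per the submitters' processing notes), without normalization. The counts were used as deposited. How the butyrate was given to these mice is not given in the sources used here.

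Cells were dropped when mitochondrial UMIs exceeded 10% or fewer than 200 genes were seen (186 without and 327 with butyrate). Doublets were then dropped by rank of the Scrublet score in scanpy 1.11.5, at 0.8% for every 1000 cells (721 and 592 cells, where Scrublet's own threshold marked 377 and 233). B cells had a UMI of Cd79a and none of Cd3e, T cells the reverse, both with under 3 UMIs of Lyz2. CD4+, CD8+ and Foxp3+ T cells had a UMI of their marker (CD4+ none of Cd8a or Foxp3, CD8+ none of Cd4 or Foxp3, Foxp3+ none of Cd8a), and other T cells were the rest. Lyz2+ cells had at least 3 UMIs of Lyz2 and none of Cd79a or Cd3e. UMIs were summed per lineage and library. A gene was tested, meaning compared, with at least 50 UMIs over both libraries, as a log2 ratio of CPM with a pseudocount of 10, and counted past 0.25. With 1 library per condition no test was run and no p-value is given. Intervals are exact Poisson (CPM), Clopper-Pearson (shares) and exact conditional binomial (ratios), and a normal approximation for differences of ratios. Shares were also computed in cells thinned to 2000 UMIs, which left out 101 and 57 cells. No lineage is known to lack the members, so B cell markers in T cells served as the measure of free RNA left after the filters and marker limits.

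The members and lists were chosen with earlier results of these data known. Some planned list genes and 1 added alternative are not reported here. Named are the 10 members, the 3 highest and 3 lowest ratios of each list in each main lineage (from genes that reached 50 CPM in either library), and the 3 genes most like each member, and examples were taken from these. On simulated CD4+ T counts of 8370 genes, 198 of 200 changed genes came out in the right direction. No change as small as that of Nfkbia or Nfkbiz in these cells was simulated. The simulated UMIs were drawn independently, and no pseudocount was added. Smaller changes and UMIs that gather in single cells were thus not covered. Alternatives concerned doublets, mitochondrial and marker limits, the total, thinning, equal weight of cells, the pseudocount and the UMI minimum. Other versions were Python 3.11.15, numpy 2.4.6, scipy 1.17.1, pandas 2.3.3, anndata 0.12.19 and matplotlib 3.10.9.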

Additional observations from a re-analysis of the deposited data

Results flagged for a closer look

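For 3 members the ratio of the library with butyrate over the library without had opposite signs in 2 lineages, with both counting intervals clear of 0. Of all genes tested, 17.6% had an interval above 0 in B cells and 7.81% had one below 0 in CD4+ T cells. The share of all genes with both was not counted. The log2 ratio of Nfkb2 was 0.11 (0.0084 to 0.21) in B cells and −0.40 (−0.68 to −0.11) in CD4+ T cells. Its B cell interval included the median of all genes in B cells, 0.027. The log2 ratio of Nfkbid was 0.23 in B cells and −0.44 in CD4+ T cells. The log2 ratio of Nfkbiz was 0.14 in B cells and −0.35 in CD4+ T cells. Under the alternatives it came as near to 0 as 0.033 in B cells and −0.13 in CD4+ T cells. With 1 library per condition these differences between lineages were not tested against the spread between animals.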

How the results depend on the processing

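No paired analysis was possible because each condition has 1 library and the labels carry no replicate numbers, and no library could be left out. Of 748 values of 70 results under the alternatives, 689 stayed within their counting interval or, for counts, close to the first count, and 59 moved by more. Thinning to 2000 UMIs moved 24 of its 64 values, the most of any alternative. None of the values whose interval was clear of 0 changed sign, while some whose interval included 0 did. Another total for CPM shifted the median of all genes by at most 0.03. The alternatives without interferon genes, without plasma cells and without myeloid markers (other than Cst3), and all counts of members, were chosen after seeing the data. The cause of each change below was not tested. The summed log2 ratio of the 10 members in B cells was 0.0058, and −0.034 without ribosomal, mitochondrial and immunoglobulin genes in the total, −0.046 thinned to 2000 UMIs, −0.028 without plasma cells and −0.040 as the mean over cells. In CD4+ T cells it was −0.36, and −0.45 thinned. In CD8+ T cells it was −0.22, and −0.29 with at least 2 marker UMIs, −0.34 thinned and −0.28 as the mean over cells. In Foxp3+ T cells it was −0.13, and −0.31 with 2 marker UMIs, −0.46 thinned and −0.37 in cells without Ifit1, Ifit3 or Isg15. In other T cells it was −0.094, and −0.17 in cells without myeloid markers. In Lyz2+ cells it was 0.031, and −0.53 thinned and −0.41 as the mean over cells. In CD4+ T cells 9 to 10 members stayed below 0 and 4 to 7 passed −0.25 under every alternative run. In CD8+ T cells 2 passed, and 1 with at most 5% mitochondrial UMIs or without myeloid markers and 4 thinned. In B cells 0 members were higher past 0.25, and 1 with at most 5% mitochondrial UMIs, thinned, or with a pseudocount of 1 CPM. That pseudocount raised the count of all genes past 0.25 from 131 to 882 higher and from 257 to 796 lower in B cells, from 390 to 1030 and from 481 to 1074 in CD4+ T cells, and from 142 to 915 and from 200 to 736 in CD8+ T cells. A minimum of 200 UMIs gave 169 higher and 251 lower in CD4+ T cells. Foxp3+ T (159 and 142) and Lyz2+ (29 and 23) had the fewest cells of the 6 lineages.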
